A study of Mus musculus with 8 samples.

Results

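Kinesin motor genes were followed in mouse testis across the 4 combinations of Ku86 and Terc genotype. The 10 genes were Kif11, Kif3a, Kif3b, Kif3c, Kif5b, Kif4, Kif2a, Kif9, Kif1b and Kif22, and every probe set annotated to any of these symbols alone was taken, giving 13 of the 12488 probe sets and 10 of the 8252 genes on the MG_U74Av2 array. Kif11 was chosen by its measured signal, which was higher where the label gives no Ku86, so its values are a description with no test. The other 9 genes are further kinesins on the array. Total RNA from testis was hybridised to 8 arrays, 2 for each genotype. Double knockout mice were Ku86(-/-) and G3-Terc(-/-), Ku86 knockout mice were Ku86(-/-) with Terc(+/+), Terc knockout mice were Ku86(+/+) and G3-Terc(-/-), and wild type mice carried Terc(+/+) and Ku86(+/+). G3 denotes the third generation without Terc, the RNA template of telomerase. Ku86, the protein of the Xrcc5 gene, binds broken DNA ends. The scanner's records name germ cells as the sample and state that RNA of 3 mice was combined for replicate 1 of the double knockout. Age and strain are not given in the sources used here.

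Kinesins are motor proteins that use ATP to move along microtubules or to shorten them. In the testis, mitotic and meiotic divisions need kinesins that build the spindle and align chromosomes. The later remodelling of spermatids needs others that carry cargo along the manchette, a transient sheath of microtubules, and into the growing flagellum. Kif11 (also called Eg5) pushes spindle poles apart, Kif3a and Kif3b carry intraflagellar transport trains, and Kif9 is known from mouse sperm as a flagellar motor.

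Signals were in arbitrary intensity units, scaled by the authors, and signals of different probe sets were not set against each other. Median signal per array lay between 49.6 and 73.0, lowest on wild type replicate 1, an array that its scanner record describes as a repeated hybridisation. The 4 genotypes met on only 1 of the 3 scan days, day 2, which held 5 arrays. The first array of the double knockout and that of the Ku86 knockout were read on day 1, and wild type replicate 1 was read alone on day 3. Signal of the targeted gene itself went against the labels. Xrcc5 read 259 to 458.8 on the 4 arrays labelled Ku86(-/-) and 11.1 to 75.6 on the 4 labelled Ku86(+/+). Where the probes lie in Xrcc5 was not given, and probes beyond the deletion could not test the labels. Why the signal was higher on the Ku86(-/-) arrays was not tested. Genotypes below are those of the labels. Exchanged Ku86 labels would reverse the sign of every averaged difference for Ku86 loss and of every interaction. They would also put other arrays in the place of wild type in the comparisons against it. A second Xrcc5 probe set read at most 3.4 on every array. Germ cell markers were present: all 10 elongating spermatid genes were measured above the filter, and their summed signal ran from 78320 to 95018 per array. Of the markers with a probe set, Sall4 (spermatogonia) and Sycp3 (spermatocytes) stayed at or under the floor of 11.8 on all arrays. The labels call the replicates experiments 1 and 2 and do not say whether these were separate animals.

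Of the 13 kinesin probe sets, 10 passed the filter on dim probe sets, covering 9 genes, and those other than Kif11 were tested. The filter was a mean signal, over all 8 arrays on the log2 scale, of at least 38.1. Kif3c, the second probe set of Kif3a and the second probe set of Kif1b lay under it. Kif11 passed only through its signal on the Ku86(-/-) arrays, since its mean on the other 4 arrays was 24.7.

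The promoters of the mitotic members Kif11, Kif4 and Kif22 are shown because Kif11 is the gene the account turns on and these share its place in mitosis. The sequences are the 250 bases before the annotated start (RefSeq, GRCm38.p6), written 5′ to 3′ on the strand of each gene. Kif11 is at chr19:37376132-37376381 (+ strand), Kif4 at chrX:100625815-100626064 (+ strand) and Kif22 at chr7:127042421-127042670 (- strand). Capitals mark TTTGAA, the core of the cell cycle genes homology region, and CCAAT, the box bound by the factor NF-Y, on either strand. On the opposite strand they read TTCAAA and ATTGG.
Kif11: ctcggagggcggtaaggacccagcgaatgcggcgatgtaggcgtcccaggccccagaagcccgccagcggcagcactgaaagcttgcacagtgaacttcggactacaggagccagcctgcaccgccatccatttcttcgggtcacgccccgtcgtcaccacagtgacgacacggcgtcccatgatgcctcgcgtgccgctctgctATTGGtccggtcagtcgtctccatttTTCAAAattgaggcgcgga
Kif4: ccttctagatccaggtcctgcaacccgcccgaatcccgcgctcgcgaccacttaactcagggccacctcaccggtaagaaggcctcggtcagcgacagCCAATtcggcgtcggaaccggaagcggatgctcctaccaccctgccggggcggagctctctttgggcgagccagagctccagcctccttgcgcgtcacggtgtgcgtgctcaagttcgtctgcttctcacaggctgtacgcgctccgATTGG
Kif22: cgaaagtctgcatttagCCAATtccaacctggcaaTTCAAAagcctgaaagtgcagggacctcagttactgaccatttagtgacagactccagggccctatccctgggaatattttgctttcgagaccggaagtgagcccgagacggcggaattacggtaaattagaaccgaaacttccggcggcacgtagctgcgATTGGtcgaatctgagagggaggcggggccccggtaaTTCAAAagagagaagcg
Kif11 held 1 TTTGAA on the opposite strand, beginning 19 bases before the start, and 1 CCAAT on the opposite strand, beginning 45 bases before it. Kif22 held 2 TTTGAA, beginning 215 and 17 bases before the start, and 2 CCAAT, beginning 233 and 54 bases before it. Kif4 held 2 CCAAT, beginning 152 and 5 bases before its start, and no TTTGAA in this window. Of the 32851 RefSeq windows of this length, 16% held TTTGAA and 33.8% held CCAAT, on either strand, and the 2 motifs do not overlap in these sequences. These matches describe the letters of the windows only.

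Kif11, whose protein crosslinks antiparallel microtubules and slides them apart to make a bipolar spindle, separated all 4 genotypes. It read 71.6 and 58.0 in the double knockout, 75.2 and 81.7 in the Ku86 knockout, 15.9 and 11.7 in the Terc knockout, and 32.1 and 39.2 in wild type. The order was Ku86 knockout, double knockout, wild type and Terc knockout, and no neighbours in it overlapped. The share of all tested probe sets that separate all 4 genotypes was not counted. The lowest Ku86(-/-) array, at 58.0, stood 1.48 times above the highest Ku86(+/+) array, at 39.2. Mean signals were 64.8 ± 9.62 in the double knockout, 78.5 ± 4.60 in the Ku86 knockout, 13.8 ± 2.97 in the Terc knockout and 35.7 ± 5.02 in wild type (SD, n = 2 each). On the log2 scale the difference averaged over Terc genotype was 1.69, and 3 of the 7282 tested probe sets had a larger one. This is the contrast that picked the gene, so that rank supports nothing. Groups of 4 against 4 did not overlap, in either direction, for 3.13% of all tested probe sets in this contrast, and 1.46% of all were in the lower direction. Against wild type the log2 differences were 0.86 in the double knockout, 1.14 in the Ku86 knockout and -1.37 in the Terc knockout. The Terc knockout sat close to the floor of 11.8, and 1 of its arrays was under it. With an offset in place of the floor the averaged difference was 1.26, and within scan day 2 it was 1.57.

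**Figure D1:**
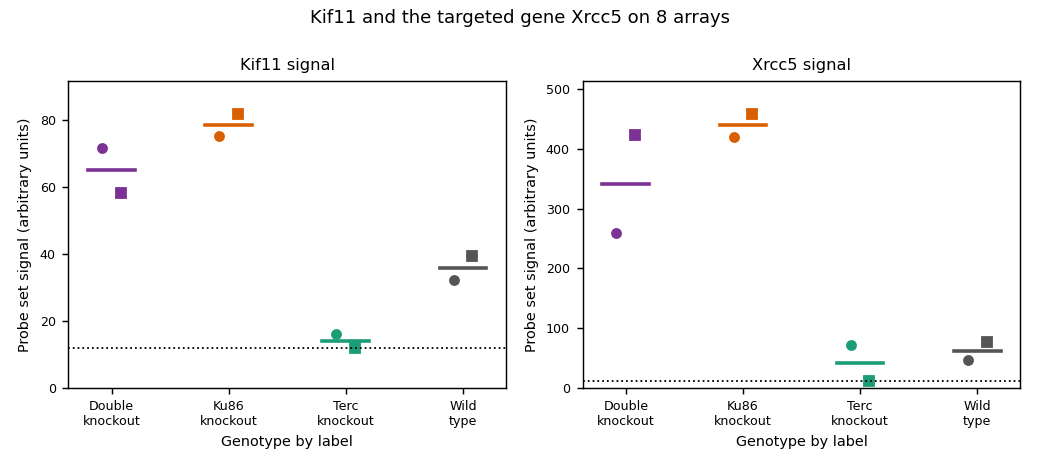
Signal of Kif11 (left) and of the targeted gene Xrcc5 (right), in arbitrary units, on 8 arrays. Circles are replicate 1, squares replicate 2, bars the mean of 2 arrays, and the dotted line the floor of 11.8. Both genes are higher on the 4 Ku86(-/-) arrays (Kif11 from 58.0 up) than on the 4 Ku86(+/+) arrays (Kif11 up to 39.2).

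By Terc label Kif11 is also described without a test, since the arrays that chose it enter that contrast and carried it past the filter. Both double knockout arrays (71.6 and 58.0) read below both Ku86 knockout arrays (75.2 and 81.7). Both Terc knockout arrays (15.9 and 11.7) likewise read below both wild type arrays (32.1 and 39.2). Terc knockout lay below wild type in this way for 12.2% of all tested probe sets. The share with the double knockout below the Ku86 knockout was not counted. The log2 difference of Kif11 for Terc loss averaged over Ku86 genotype was -0.83. It was -0.57 with an offset in place of the floor, which the Terc knockout arrays sat near, and -1.01 within scan day 2.

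Marker sums moved with the same labels in part. The summed signal of 16 Sertoli cell genes (Sertoli cells nurse the germ cells) was 2983 to 6090 on Ku86(-/-) arrays and 2703 to 4178 on Ku86(+/+) arrays. That of 15 peritubular and matrix genes was 2331 to 3652 on Ku86(-/-) arrays and 1799 to 3106 on Ku86(+/+) arrays, and that of 10 spermatogonia genes was 2521 to 3127 and 1602 to 2848 in the same order. All 3 sums overlapped between the labels. The sum of 8 spermatocyte genes was 17600 to 18800 on Ku86(-/-) arrays and 16836 to 21499 on Ku86(+/+) arrays. That of 6 round spermatid genes was 8409 to 11743 and 8518 to 12736 in the same order. By Terc label the Sertoli sum was 3652 to 6090 on Terc(-/-) arrays and 2703 to 4484 on Terc(+/+) arrays. The part of cell composition in the Kif11 signal was not tested. The labels call the sample testis and the scanner's records call it germ cells, a conflict not settled here. None of the 16 Sertoli cell genes was at or under the floor on all 8 arrays. In a bulk sample of either kind, fewer cells of a type and less RNA per cell cannot be told apart.

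Among the other mitotic motors, Kif22, a chromokinesin that pushes chromosome arms away from the poles, read 880 and 1119 in the double knockout, 952.3 and 1170.9 in the Ku86 knockout, 1248.9 and 1376.6 in the Terc knockout, and 1062.8 and 1276.4 in wild type. The Terc knockout had the highest mean and the double knockout the lowest, and the Ku86 labels overlapped. Its difference for Ku86 loss averaged over Terc genotype was -0.27 ± 0.15 (SE, limma, adjusted p = 0.91). Its correlation with Kif11 over the 8 arrays was -0.71, and 1.99% of tested probe sets had a correlation that low or lower. This is given as a description, since the arrays share genotypes and scan days.

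Kif4, a chromokinesin that works at the spindle midzone, read 41.4 and 59.1 in the double knockout, 46.8 and 80.1 in the Ku86 knockout, 46.6 and 66.6 in the Terc knockout, and 24.4 and 42.2 in wild type. Wild type had the lowest mean, and its upper array overlapped the lower array of the double knockout. The largest difference was that of the Ku86 knockout against wild type, 0.93 ± 0.53 (SE, limma, adjusted p = 0.802), and it was 0.54 without wild type replicate 1. Averaged over the other genotype, Kif4 differed by 0.38 ± 0.37 for Ku86 loss and by 0.24 ± 0.37 for Terc loss (SE, limma, adjusted p = 0.937 and 0.988).

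Kif2a, which shortens microtubules from their ends, read 188.4 and 264.2 in the double knockout, 193.2 and 222.1 in the Ku86 knockout, 205.3 and 219.7 in the Terc knockout, and 155.2 and 190.7 in wild type. Its differences were 0.17 ± 0.19 for Ku86 loss and 0.21 ± 0.19 for Terc loss, each averaged over the other genotype (SE, limma, adjusted p = 0.947 and 0.967). Both were of the size of their SE. Kif4, Kif2a and Kif22 each read higher on the second than on the first array of all 4 genotypes, a pattern seen for 13.5% of all tested probe sets. Kif3a showed the reverse in all 4, as did 6.77% of all.

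**Figure D2:**
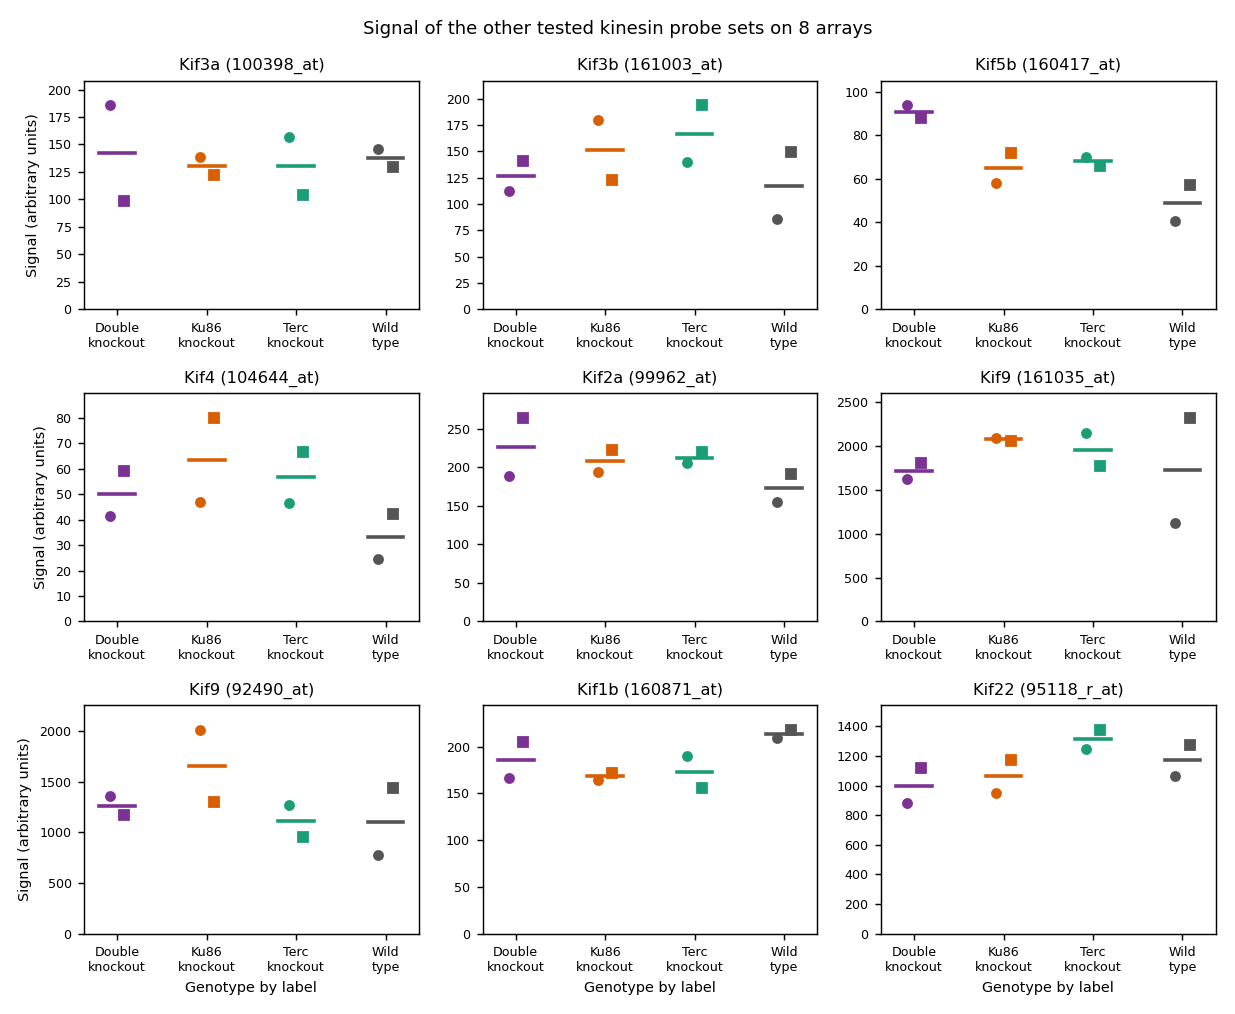
Signal in arbitrary units of the 9 other tested kinesin probe sets on 8 arrays. Circles are replicate 1, squares replicate 2, and bars the mean of 2 arrays. Replicates of a genotype often lie as far apart as the genotypes do, as for Kif9, where wild type spans 1118.1 to 2323 on 1 probe set.

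The Kif3 motor is a complex of Kif3a with Kif3b or Kif3c and the adaptor Kifap3, and it drives intraflagellar transport outward along the axoneme. Kif3a read 185.5 and 98.2 in the double knockout, 138.2 and 122.3 in the Ku86 knockout, 156.8 and 103.9 in the Terc knockout, and 145.6 and 129.9 in wild type. The double knockout arrays were the highest and the lowest of all 8, and so enclosed every other genotype. Kif3a differed by -0.00028 ± 0.25 for Ku86 loss and by -0.027 ± 0.25 for Terc loss (SE, limma, adjusted p = 1 and 0.997). Kif3b read 112.2 and 141 in the double knockout, 179.6 and 122.9 in the Ku86 knockout, 139.8 and 193.7 in the Terc knockout, and 85.3 and 149.9 in wild type. Its difference was 0.0031 ± 0.25 for Ku86 loss and 0.15 ± 0.25 for Terc loss (SE, limma, adjusted p = 1 and 0.989). The sign for Ku86 loss turned to -0.25 within scan day 2.

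Kif3c, known mainly from neurons as a partner of Kif3a, was dim everywhere. It read 12.8 and 7.1 in the double knockout, 7.2 and 12.5 in the Ku86 knockout, 9.7 and 8.1 in the Terc knockout, and 24.9 and 38 in wild type. Wild type held the 2 highest readings, yet 4 of the 8 arrays lay under the floor of 11.8 and the probe set was not tested. The second Kif3a probe set read 8.8 to 52.4 and was likewise not tested.

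Partner genes were ranked by the brightest probe set of each, and on that basis Kifap3, which links the Kif3 heads to cargo, had the highest difference for Terc loss. It read 234.7 and 229.5 in the double knockout, 152.4 and 136.4 in the Ku86 knockout, 224.7 and 173.6 in the Terc knockout, and 129.2 and 158.7 in wild type. Every Terc(-/-) array, from 173.6 up, read above every Terc(+/+) array, up to 158.7, a pattern held by 1.55% of all tested probe sets in that direction. The averaged difference of 0.58 ± 0.19 (SE) did not pass adjustment (limma, adjusted p = 0.904, unadjusted p = 0.0101) and was 0.53 within scan day 2. Neither Kif3a nor Kif3b showed this separation. Peritubular and matrix markers summed to 2645 to 3652 on Terc(-/-) arrays and 1799 to 2974 on Terc(+/+) arrays, so they too were higher with overlap, and their part in the Kifap3 signal was not tested.

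**Figure D3:**
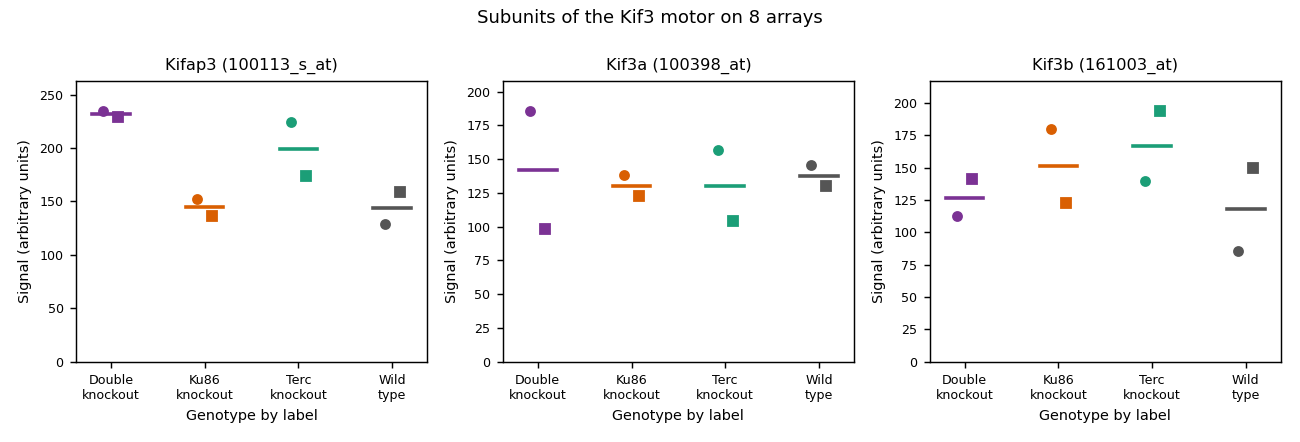
Signal in arbitrary units of the adaptor Kifap3 and of the motor subunits Kif3a and Kif3b on 8 arrays. Circles are replicate 1, squares replicate 2, and bars the mean of 2 arrays. Kifap3 is at 173.6 or more on the 4 Terc(-/-) arrays and at 158.7 or less on the 4 Terc(+/+) arrays, while Kif3a and Kif3b overlap.

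Kif5b, the widely expressed heavy chain of conventional kinesin, read 93.8 and 88 in the double knockout, 58.3 and 72 in the Ku86 knockout, 70.1 and 66.1 in the Terc knockout, and 40.8 and 57.4 in wild type. The double knockout lay above all 6 other arrays and wild type lay below all 6 others, while the single knockouts overlapped. How many probe sets share this order was not counted, but both double knockout arrays read above both wild type arrays for 23.2% of all. Peritubular and matrix sums held the same order, at 3122 and 3652 in the double knockout and 1799 and 2019 in wild type. Sertoli sums did too, at 6090 and 5092.5 and at 2791 and 2703. No other cell type sum did, and the part of these cells in the Kif5b signal was not tested. Against wild type Kif5b in the double knockout differed by 0.91 ± 0.39 (SE, limma, adjusted p = 0.549, unadjusted p = 0.0378) and by 0.66 without wild type replicate 1. Kif5b was the single kinesin of 9 tested probe sets in that comparison with an unadjusted p under 0.05, against 8.6% of all tested probe sets. Averaged over the other genotype it differed by 0.42 ± 0.27 for Ku86 loss and by 0.49 ± 0.27 for Terc loss (SE, limma, adjusted p = 0.91 and 0.967). Its interaction term was -0.0044 ± 0.55 (SE, limma, adjusted p = 0.999).

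The light chain Klc4, which binds cargo for conventional kinesin, had the lowest differences among the brightest partner probe sets, -0.076 ± 0.16 for Ku86 loss and -0.073 ± 0.16 for Terc loss (SE, limma, adjusted p = 0.969 and 0.997). It read 385.4 and 323.6 in the double knockout, 384.1 and 409.6 in the Ku86 knockout, 387.4 and 407.9 in the Terc knockout, and 431 and 355.4 in wild type. Its dimmer probe set read 36.7 and 27 in the double knockout, 54.1 and 32 in the Ku86 knockout, 58.8 and 45.1 in the Terc knockout, and 71.3 and 64.8 in wild type, where both arrays stood above all 6 others. The share of all probe sets with this pattern was not counted. Both double knockout arrays read below both wild type arrays for 13.2% of all. The dimmer Klc4 probe set differed by -0.71 ± 0.35 for Ku86 loss and by -0.40 ± 0.35 for Terc loss (SE, limma, adjusted p = 0.91 and 0.967). Its difference from wild type in the double knockout was -1.11 ± 0.50 (SE, limma, adjusted p = 0.57, unadjusted p = 0.0475). The light chain Klc1 had 3 tested probe sets, which differed by 0.40 ± 0.29, 0.063 ± 0.28 and 0.80 ± 0.47 for Terc loss, from brightest to dimmest (SE, limma, adjusted p = 0.967, 0.997 and 0.967). The dimmest of these lay above Kifap3 in size, with a larger SE. None of the tested probe sets of the 3 partners passed adjustment in either averaged contrast.

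Kif1b, a carrier of mitochondria and synaptic vesicle precursors, read 166.5 and 205 in the double knockout, 164.2 and 171.9 in the Ku86 knockout, 189.8 and 155.5 in the Terc knockout, and 209.1 and 217.9 in wild type. Wild type read above all 6 knockout arrays, from 209.1 against at most 205. Both arrays of the double, Ku86 and Terc knockout read below both wild type arrays for 13.2%, 13.7% and 12.2% of all tested probe sets. The share below in every knockout was not counted. The Kif1b differences were -0.12 ± 0.18 for Ku86 loss and -0.088 ± 0.18 for Terc loss (SE, limma, adjusted p = 0.958 and 0.997). Its dim probe set read under the floor on 6 arrays.

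Kif9 had 2 probe sets, both bright. The first read 1619.8 and 1803.4 in the double knockout, 2095.3 and 2053.5 in the Ku86 knockout, 2149.3 and 1769.9 in the Terc knockout, and 1118.1 and 2323 in wild type. The second read 1353.9 and 1170.2 in the double knockout, 2010.9 and 1294.4 in the Ku86 knockout, 1265.1 and 956.8 in the Terc knockout, and 772.5 and 1434.5 in wild type. On both, wild type replicate 1 was the lowest of all 8 arrays. For Ku86 loss the probe sets differed by 0.087 ± 0.20 and 0.41 ± 0.21 (SE, limma, adjusted p = 0.976 and 0.91). Within scan day 2 these were -0.15 and -0.030, so their sign did not hold. For Terc loss they differed by -0.0021 ± 0.20 and -0.15 ± 0.21 (SE, limma, adjusted p = 0.998 and 0.986).

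Across the tested kinesin probe sets without Kif11, 0 of 9 were called for Ku86 loss averaged over Terc genotype, where 0% of all probe sets were called. At an unadjusted p under 0.05 there were 0 of 9, against 5.15% of all. Their median difference was 0.087, against 0.029 over all tested probe sets, with 6 above 0 and 3 below. For Terc loss averaged over Ku86 genotype 0 of 9 were called, against 0.0137% of all, and 0 of 9 had an unadjusted p under 0.05, against 5.29%. Their median was 0.041, against 0.043 over all, with 5 above 0 and 4 below. Against wild type 0 of 9 were called in the double knockout, the Ku86 knockout and the Terc knockout, where 0.0275%, 0.0412% and 0.0275% of all probe sets were. The kinesin medians against wild type were 0.15, 0.36 and 0.28 in the same order, and those over all probe sets 0.075, 0.095 and 0.11. At an unadjusted p under 0.05 there were 1, 0 and 0 of 9, against 8.6%, 5.9% and 7.06% of all. Both arrays read above both wild type arrays for 1, 3 and 3 of 9, against 23.2%, 24.4% and 25.5% of all, and below them for 1 in each, against 13.2%, 13.7% and 12.2%. These counts share the wild type arrays. Wild type replicate 1 was the lowest array for 6 of the 10 kinesin probe sets, and for 26.8% of all tested probe sets.

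**Figure D4:**
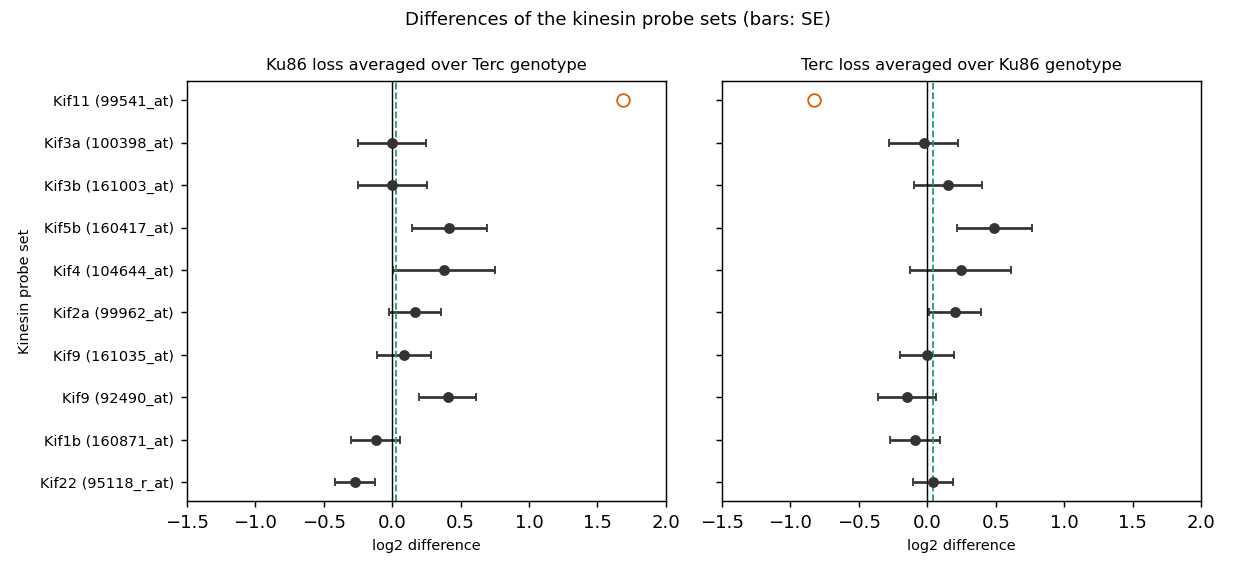
Log2 differences (horizontal axis) of the 10 kinesin probe sets past the filter (rows) for Ku86 loss and for Terc loss, each averaged over the other genotype. Bars are SE and the dashed line is the median of all tested probe sets. Kif11, at 1.69 for Ku86 loss and -0.83 for Terc loss, is drawn open and with no SE because it was not tested, while the other points lie between -0.27 and 0.49.

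The interaction asked whether the effect of losing both differed from the sum of the single effects. Kinesin values ran from -1.10 for Kif4 to 0.45 for Kif1b, with 0 of 9 called and 0% of all probe sets called. At an unadjusted p under 0.05 there were 0 of 9, against 5.04% of all. The Kif4 value had an SE of 0.74 (limma, adjusted p = 0.875) and was -0.71 without wild type replicate 1. Kif3b stood at -0.78 ± 0.50 (SE, limma, adjusted p = 0.875) and at 0.064 within scan day 2. For Kif11 the interaction was 1.09, described without a test.

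Other kinesins and the machinery around them gave no calls in the averaged contrasts, taking the brightest probe set of each gene. Of 8 other kinesins with a tested probe set, Kif23, which bundles midzone microtubules in cytokinesis, had the largest difference for Ku86 loss. It read 343.9 and 307.6 in the double knockout, 248.1 and 401.4 in the Ku86 knockout, 183.1 and 204.8 in the Terc knockout, and 217 and 294.1 in wild type. The difference was 0.53 ± 0.20 (SE, limma, adjusted p = 0.90, unadjusted p = 0.0207), with overlap between the Ku86 labels. Kif5a, a neuronal heavy chain of conventional kinesin, stood lowest at -0.54 ± 0.36 (SE, limma, adjusted p = 0.91). For Terc loss the extremes were Kif5c at 0.43 ± 0.61, another heavy chain, and Kifc3 at -0.22 ± 0.25, a motor that walks to microtubule minus ends (SE, limma, adjusted p = 0.984 and 0.977). The Kif5c sign turned to -0.18 without Terc knockout replicate 1 and to -0.076 without Ku86 knockout replicate 1, and the Kifc3 sign to 0.025 without wild type replicate 1.

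In the spindle and mitosis list 24 genes were tested and 0 were called in either averaged contrast. For Ku86 loss their median was 0.14, against 0.029 over all tested probe sets, with 16 above 0. Top2a, which untangles chromosomes, was highest at 0.44 ± 0.19 and Birc5, a subunit of the chromosomal passenger complex, lowest at -0.29 ± 0.17 (SE, limma, adjusted p = 0.91 for both). For Terc loss the median was -0.045, against 0.043 over all, and the extremes were Ccna2, a cyclin of S phase and mitosis, at 0.41 ± 0.20 and Bub3, a spindle checkpoint protein, at -0.25 ± 0.14 (SE, limma, adjusted p = 0.946 and 0.967). Summed spindle signal ran from 19069 to 21245 on Ku86(-/-) arrays and from 17510 to 20078 on Ku86(+/+) arrays, with overlap. Kif11 was chosen for its higher signal without Ku86, so its separation is not set against this sum.

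Dynein and dynactin, the minus-end motor and its activator, had 15 tested genes and 0 calls in both averaged contrasts. Their median was 0.10 for Ku86 loss and 0.14 for Terc loss, against 0.029 and 0.043 over all. Ndel1, a dynein regulator, was highest for Ku86 loss at 0.43 ± 0.16, and Dctn5, a dynactin subunit, lowest at -0.23 ± 0.15 (SE, limma, adjusted p = 0.90 and 0.91). For Terc loss Dynll2, a dynein light chain, stood at 0.51 ± 0.24 and Dctn2, another dynactin subunit, at -0.29 ± 0.15 (SE, limma, adjusted p = 0.944 and 0.967).

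Tubulins, the track itself, had 11 tested genes and 0 calls in both averaged contrasts. Tubb6, a beta-tubulin, read 900.2 and 1021.4 in the double knockout, 999 and 905.9 in the Ku86 knockout, 1265.9 and 1291 in the Terc knockout, and 1359.5 and 1427.9 in wild type. No Ku86(-/-) array, up to 1021.4, reached the lowest Ku86(+/+) array, 1265.9, which 1.46% of all tested probe sets showed in that direction. The difference was -0.48 ± 0.13 (SE, limma, adjusted p = 0.70, unadjusted p = 0.0026). Tuba4a, an alpha-tubulin, was the highest for Ku86 loss at 0.25 ± 0.29, and Tubb4a at 0.22 ± 0.22 and Tubg1, the gamma-tubulin of centrosomes, at -0.19 ± 0.17 were the extremes for Terc loss (SE, limma, adjusted p = 0.947, 0.967 and 0.967).

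The cargo trains of the Kif3 motor, the intraflagellar transport genes, had 7 tested members and 0 calls in both averaged contrasts. Ift81 was highest for Ku86 loss at 0.28 ± 0.15 and Ift27 lowest at -0.38 ± 0.14 (SE, limma, adjusted p = 0.91 and 0.90). For Terc loss Ift20 was highest at 0.047 ± 0.17 and Ift27 again lowest at -0.23 ± 0.14 (SE, limma, adjusted p = 0.997 and 0.967). A dimmer probe set of Ift46, another train subunit, was the only call on any of these lists in the 6 comparisons. It read 205.7 and 187 in the double knockout, 338.4 and 250.2 in the Ku86 knockout, 349.8 and 142.1 in the Terc knockout, and 41.5 and 43.5 in wild type. Every knockout array stood above both wild type arrays. Both arrays of the double, Ku86 and Terc knockout read above both wild type arrays for 23.2%, 24.4% and 25.5% of all tested probe sets. The share above in all 3 was not counted. The dimmer Ift46 probe set rose in the Ku86 knockout against wild type by 2.78 on the log2 scale (limma, adjusted p = 0.0447), and that comparison held 0 calls after quantile normalization or without wild type replicate 1. The brighter Ift46 probe set did not show this. It read 621.7 and 815.4 in the double knockout, 677.4 and 726.9 in the Ku86 knockout, 667.2 and 527 in the Terc knockout, and 747 and 784.2 in wild type, and its difference in the Ku86 knockout was -0.13 ± 0.22 (SE, limma, adjusted p = 0.906). The 2 probe sets of this gene disagree in sign.

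The probe sets whose pattern over the 8 arrays was most like Kif11, of 6536 with 1 gene symbol, were those of Cdk8, Gabpa, Scamp2, Rasip1 and Bbs9, with Pearson correlations of 0.931, 0.924, 0.922, 0.919 and 0.917. Cdk8, a kinase of the Mediator complex, read 316.4 and 300.2 in the double knockout, 338.4 and 296.9 in the Ku86 knockout, 255.5 and 230.7 in the Terc knockout, and 268.9 and 273.2 in wild type. Like Kif11 it was higher on every Ku86(-/-) array and lowest in the Terc knockout, over a narrower range. For Kif9 the closest were Dnajb6, Matr3, Cand1, Bag6 and Peli1, with correlations of 0.984, 0.974, 0.968, 0.961 and 0.959. All 5 were lowest on wild type replicate 1, as Kif9 was. The highest of so many correlations over 8 arrays are given as a description of pattern.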

How the data were processed

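Testis RNA was measured on 8 MG_U74Av2 arrays. The authors deposited linear probe set intensities, scaled array by array; no source used here names the software. Per the file headers, the scanner records give 3 scan days and other text fields. Low signals were raised to the pooled 20th percentile (11.8) before conversion to log2. Controls (66 of 12488 probe sets) were dropped, as were 5140 whose mean floored log2 signal lay under the pooled 40th percentile (38.1); 7282 remained. One mean per genotype was fitted over the 8 arrays (limma 3.58.1 under R 4.3.3, moderated with a variance trend), with Benjamini-Hochberg adjustment within each contrast, a threshold of 0.05 and two-sided tests. With 2 arrays per genotype, p-values measure the spread between these samples, which may be technical, and the number of arrays limits precision. The fit was tested on simulated data. Symbols came from the platform annotation, updated through GRCm38.p6: 10855 probe sets had 1 symbol, 396 several and 1237 none. Kif11 was planned for a test of Terc loss, but that test was withheld because it could not be shown to be independent of the values that chose the gene. Members, gene lists and tests were chosen with earlier results of these data known. Named were all member probe sets, Xrcc5, any probe set called on a list, the extremes of each pathway list in the averaged contrasts (cell type lists are given as sums) and the 5 probe sets most like Kif11 and Kif9. The promoters, their motifs, and the single comparisons against wild type and interactions given for Kif5b, Kif4, Kif9 and Kif3b were chosen after values were seen. Alternatives covered normalization, floor, filter, variance trend, experiment number, scan day and each array left out; a filter on mean linear signal was added after seeing the data.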

Additional observations from a re-analysis of the deposited data

How the results depend on the processing

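Of the tested kinesin differences that were rerun, 0 passed adjustment under any alternative. The Kif5b interaction, the dimmer Klc4 probe set and the Klc1 probe sets were not rerun. Kif11 lay near the floor in the Terc knockout, where low signal limits the size of a difference. In the order Ku86 loss averaged, Terc loss averaged, Ku86 knockout, Terc knockout and double knockout against wild type, and interaction, the counts of called probe sets were 0, 1, 3, 2, 2 and 0. On scan day 2 alone they were 20, 8, 15, 17, 30 and 9, from 1 residual degree of freedom. With no filter they were 2, 4, 3, 9, 1 and 8. The 3 comparisons against wild type gave 0 each after quantile normalization, with the experiment number as replicate block and without the variance trend, and 1 each after median centring. With scan day as a block they gave 0, 1 and 0, with Terc loss averaged at 0, as it was with no variance trend. The floor at the 5th percentile gave 0 for the Terc knockout, and an offset gave 0 for the Ku86 knockout and 1 for Ku86 loss averaged. Leaving out each array gave 0 to 1 for Ku86 loss averaged, 0 to 3 for Terc loss averaged, 0 to 3 for the Ku86 knockout, 0 to 4 for the Terc knockout, 0 to 4 for the double knockout and 0 to 1 for the interaction.

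Same-numbered arrays correlated in their deviations by 0.013 to 0.25 over 6 genotype pairs, all above 0. The number was not taken as a pairing in the main fit. With it as replicate block, more probe sets had an unadjusted p under 0.05 (limma) in all 6 comparisons. For Ku86 loss averaged they went from 375 to 466, and for the Terc knockout against wild type from 514 to 734. The block changed no kinesin call among those rerun, and the source of the shared deviations was not tested. A filter on the mean linear signal, added after seeing the data, tested 7556 probe sets and left every count as it was. Some signs turned. For Ku86 loss, Kif3b gave -0.075 after quantile normalization, -0.081 after median centring, -0.00049 with an offset and -0.25 with scan day as a block or alone. Kif3a gave 0.0012 with an offset, and both Kif9 probe sets gave -0.15 and -0.030 with scan day as a block or alone. The second Kif9 probe set in the Ku86 knockout gave -0.042 with scan day as a block and -0.15 on scan day 2 alone, and Kifap3 gave -0.00092 under both. For Terc loss, median centring gave -0.14 for Kif22, -0.032 for Kif3b and -0.14 for Ift20, and quantile normalization gave 0.087 for the first Kif9 probe set and -0.038 for Ift20. Scan day as a block gave -0.025 for Kif22, 0.014 for Kif3a, -0.053 for Kif3b and 0.025 for Kifc3, and scan day 2 alone gave -0.013 for Kif22, -0.019 for Kif4 and -0.35 for Kif5c. The Kif3b interaction was 0.064 on scan day 2 alone. Leaving out each array gave, for Ku86 loss, -0.23 to 0.23 for Kif3a, -0.20 to 0.21 for Kif3b and -0.18 to 0.35 for the first Kif9 probe set. For Terc loss it gave -0.26 to 0.20 for Kif3a, -0.053 to 0.35 for Kif3b, -0.27 to 0.26 and -0.37 to 0.076 for the Kif9 probe sets, -0.046 to 0.13 for Kif22, -0.18 to 1.05 for Kif5c and -0.47 to 0.025 for Kifc3. Averaged Kif11 differences kept their sign throughout, at 1.26 to 1.80 for Ku86 loss and -1.01 to -0.57 for Terc loss. Median centring moved the median of all probe sets from 0.11 to -0.22 in the Terc knockout against wild type. The causes of these moves were not tested.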
